A study of Mus musculus with 3 samples.

Results

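The cDC1s compared here are those of clusters 7 and 9 among the cDC1s of mouse tumours, as numbered by the authors at the clustering resolution of 0.8. A cDC1 is a conventional dendritic cell that takes up material from dying cells and presents it to CD8 T cells. The cells were chosen by their cluster number in the deposited cell table, which gave 422 cells in cluster 7 and 162 cells in cluster 9, together 584 of 5806 deposited cDC1s. The tumours were MCA205 LA-OVA fibrosarcomas, a transplanted line that carries the model antigen OVA, and dendritic cells were sorted from them and measured by droplet-based scRNAseq, in which each captured transcript is counted once through its unique molecular identifier (UMI). There were 3 libraries, 1 each from WT mice, from *sGSN-/-* mice, which lack secreted gelsolin, and from *sGSN-/-Clec9a-/-* mice, which also lack DNGR-1, the product of *Clec9a*. Each library was made from tumours pooled over male and female mice, so that a genotype had no second library.

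Counts of the cells of 1 cluster were summed in each library, which gave 3 sums against 3. Cluster 7 held 154, 134 and 134 cells in the WT, *sGSN-/-* and *sGSN-/-Clec9a-/-* libraries, with 2280298, 2111582 and 1754536 UMIs. Cluster 9 held 67, 40 and 55 cells with 1041283, 554800 and 675611 UMIs. Wherever values of 3 libraries follow each other, they stand in this order. Cells of the clusters were alike in depth, with a median of 14254 UMIs and 2972 genes in cluster 7 and 14033 UMIs and 3028 genes in cluster 9. The median share of mitochondrial UMIs was 1.62% and 1.71%. No barcode of these cells occurred in more than 1 library, although 26 to 28 barcodes of the whole libraries were shared by a pair of them. Levels (CPM) are counts scaled so that all sums have an equal total. The value after ± is the SD among the 3 libraries of a mean, which also holds any difference between genotypes.

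Both clusters carried the transcripts that define cDC1s. All 8 markers of the cDC1 list were counted in every sum except for *Clec9a* in cluster 9 of the *sGSN-/-Clec9a-/-* library, and they summed to 3848 ± 152 CPM in cluster 7 against 4357 ± 264 CPM in cluster 9. *Clec9a* stood at 203, 229 and 0.570 CPM in cluster 7 against 204, 225 and 0 CPM in cluster 9, which fits the genotype labels of the libraries. *Gsn*, the gelsolin gene, stood at 154, 152 and 166 CPM and at 135, 182 and 170.2 CPM. The counts join the secreted and the cytoplasmic transcripts of this gene, so that *Gsn* does not check the label of the mice without secreted gelsolin.

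Type I interferons are cytokines that signal through the receptor chains IFNAR1 and IFNAR2 to transcription factors, among them STAT2 and IRF9, which bind the interferon-stimulated response element (ISRE) and switch on a large group of antiviral genes. NF-kB is a family of dimeric transcription factors held in the cytoplasm by inhibitor proteins. Signals from TNF receptors, Toll-like receptors or CD40 lead to the destruction of these inhibitors, and NF-kB then activates cytokine and survival genes together with the genes of its own inhibitors, which end the response. Dendritic cells use both pathways during activation.

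Cluster 7 stood apart from cluster 9 by high levels of interferon-stimulated genes, and cluster 9 from cluster 7 by high levels of NF-kB subunits, inhibitors of NF-kB, *Tnf* and immediate early genes. With edgeR's quasi-likelihood test and Benjamini-Hochberg adjustment at 0.05, 7304 genes had enough counts to be tested, of which 903 (12.4%) were higher in cluster 7 and 682 (9.34%) higher in cluster 9. The test weighs the difference of a gene between the clusters against its spread among the 3 libraries. Since the authors defined the clusters from these cells, adjusted p-values are no evidence for a difference between the clusters, and counts of genes are descriptions. Of the genes called, 56.97% were higher in cluster 7, and 46.99% when the sums were scaled by their totals without TMM factors. The count of genes higher in cluster 7 fell to 592 without the WT library, and that of genes higher in cluster 9 to 412 without the *sGSN-/-* library. The median log2 fold change of cluster 7 over cluster 9 was -0.00 over all genes tested.

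The interferon-stimulated genes of cluster 7 were led by the *Ifit* genes, whose products bind viral RNA. *Ifit3* (ENSMUSG00000074896, chromosome 19, 34583531 to 34588731, plus strand) was counted at 133, 166 and 164 CPM in cluster 7 against 0, 3.60 and 8.88 CPM in cluster 9. Every sum of cluster 7 lay above every sum of cluster 9, and the log2 fold change was 5.48 ± 0.35 (SE; adjusted p = 9.4e-10, edgeR). It was 4.71 without the WT library and 6.86 without the *sGSN-/-Clec9a-/-* library. *Ifit2* reached 267, 364 and 309 CPM against 6.72, 19.8 and 16.3 CPM, a log2 fold change of 4.66 ± 0.23. *Ifit1* gave 330 UMIs in cluster 7 and 3 UMIs in cluster 9, a ratio of 40.7 after scaling by the totals, with an exact interval for counting error of 13.8 to 198. *Ifit3b*, a near-identical copy of *Ifit3* whose counts are uncertain for this reason, gave 138 UMIs in cluster 7 and none in cluster 9 and was at least 17.001-fold higher, taking 3 UMIs over the cluster as the floor. *Isg15* (ENSMUSG00000035692, chromosome 4, 156199424 to 156200818, minus strand), a ubiquitin-like modifier, was counted at 1341, 1542 and 1299 CPM in cluster 7 against 52.8, 155 and 118 CPM in cluster 9, a 14.3-fold difference. In cluster 9 the WT library was the lowest for *Ifit3*, *Ifit2* and *Isg15*, but none of these sums came near those of cluster 7.

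The list of type I interferon-stimulated genes showed the same direction throughout. It was chosen with earlier results of these data known, and the authors describe cluster 7 by such genes, so its count only describes. Of 60 listed genes, 58 were in the matrices and 55 passed the filter on low counts, and all 55 of these were higher in cluster 7, with a median log2 fold change of 2.21. The genes of the list together made up 18784 ± 692 CPM of cluster 7 and 5045 ± 698 CPM of cluster 9. *Ifit1bl1*, *Oas1g* and *Oas2* did not pass the filter. *Isg20*, an exonuclease that degrades RNA, stood at 306 ± 16.3 CPM in cluster 7 against 33.7 ± 19.2 CPM in cluster 9. *Rsad2*, whose product viperin makes a chain-terminating nucleotide, stood at 283 ± 35.1 CPM in cluster 7 against 28.05 ± 19.6 CPM in cluster 9, and *Usp18*, which removes ISG15 from proteins and dampens interferon receptor signalling, at 299 ± 35.98 CPM in cluster 7 against 37.5 ± 2.14 CPM in cluster 9. *Ifitm3*, which blocks the fusion of viruses with endosomes, was among the most abundant of the group with 2546 ± 15.7 CPM in cluster 7 against 596 ± 145 CPM in cluster 9. The smallest difference of the list was a log2 fold change of 0.79.

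Among the 12 leading genes of cluster 7 were also *Fcgr1*, *Sct* and *Ms4a6b*, which are not in this list. *Fcgr1*, the high-affinity receptor for IgG, stood at 70.2, 52.1 and 67.3 CPM in cluster 7 against 2.88, 1.80 and 0 CPM in cluster 9, with a log2 fold change of 5.16 ± 0.39, or 6.09 without the WT library. *Sct*, the gene of the hormone secretin, stood at 74.1, 66.3 and 53.01 CPM and 0, 9.01 and 4.44 CPM, and *Ms4a6b*, of the MS4A family of membrane proteins, at 124, 137 and 151 CPM and 8.64, 10.8 and 11.8 CPM. For *Ly6a*, a gene of the list that encodes the surface protein Sca-1, the sums were 173, 137 and 208 CPM against 2.88, 12.6 and 16.3 CPM. The log2 fold change of *Sct* was 4.23, or 3.55 with thinned cells, 3.25 without the WT library and 5.18 without the *sGSN-/-* library, and that of *Ly6a* was 4.26, or 3.62 without the WT library. In all 4 genes the clusters did not overlap, and the sums of cluster 7 differed among libraries by less than they differed from cluster 9.

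**Figure D1:**
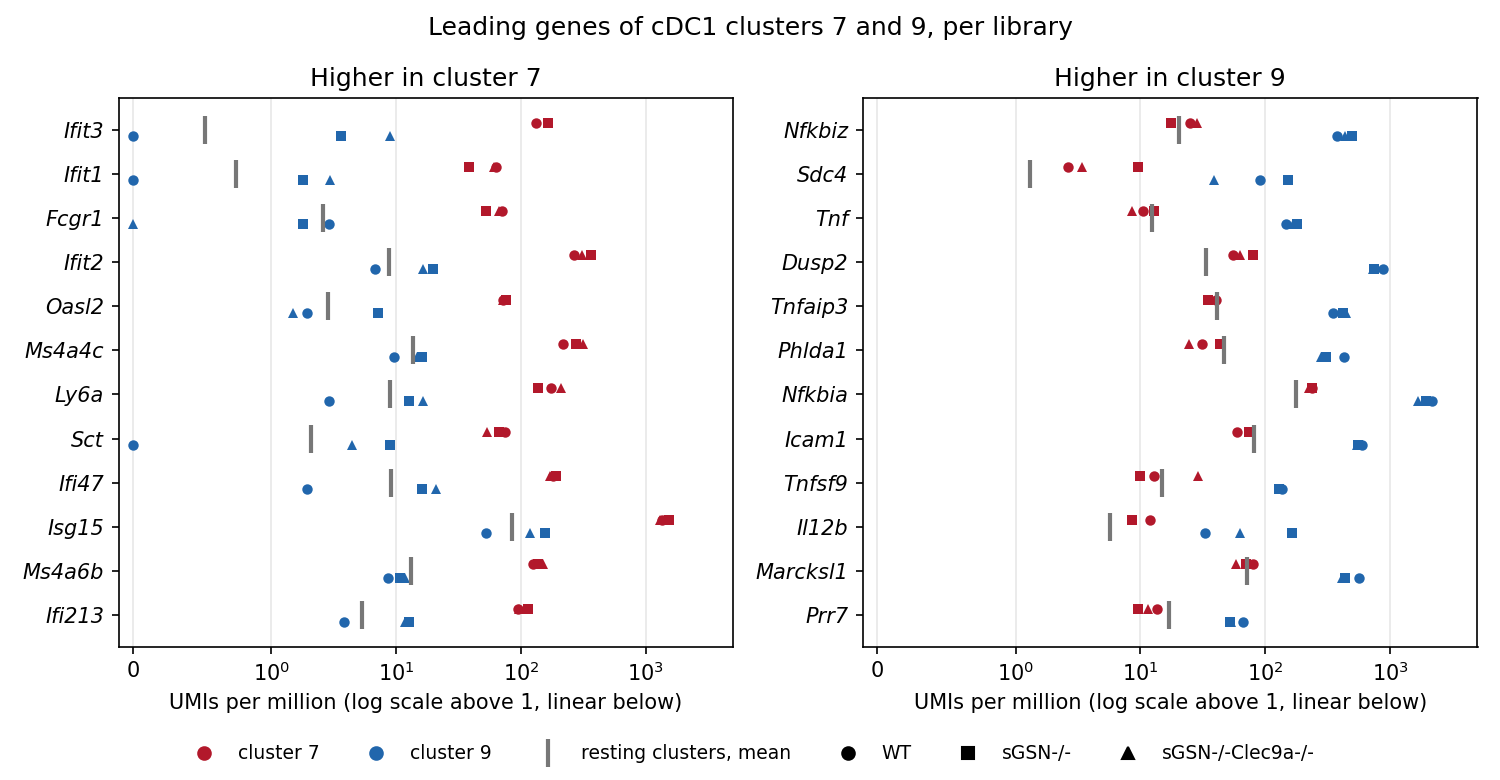
The 12 genes with the largest difference in each direction among those past the threshold at 50 CPM or more in the higher cluster, with CPM on the x axis; each symbol is 1 library, red for cluster 7 and blue for cluster 9, and the upright bar is the mean of the resting clusters. For each gene shown the 3 red symbols lie on 1 side of the 3 blue symbols, and *Ifit3* runs from 0 to 8.88 CPM in cluster 9 and from 133 to 166 CPM in cluster 7.

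The GTPases induced by interferon gamma, which attack the vacuoles of intracellular microbes, were also higher in cluster 7. Of 16 listed genes 12 passed the filter and 10 were higher in cluster 7, a count of 5 with thinned cells (5 tested), while *Gbp9* and *Gvin1* did not pass the threshold. *Gbp9* passed it as higher in cluster 7 with the library as a block, without the filter on low counts or without the *sGSN-/-Clec9a-/-* library (adjusted p from 0.018 to 0.38 over the alternatives). The median log2 fold change was 3.34, and 2.71 without the *sGSN-/-Clec9a-/-* library. *Ifi47* stood at 181 ± 9.99 CPM in cluster 7 against 12.95 ± 9.82 CPM in cluster 9, with a log2 fold change of 4.08, or 3.35 without the WT library and 4.78 without the *sGSN-/-Clec9a-/-* library. *Irgm1* stood at 147 ± 17.8 CPM in cluster 7 against 20.7 ± 7.66 CPM in cluster 9 and *Igtp* at 38.3 ± 4.40 CPM in cluster 7 against 8.74 ± 3.47 CPM in cluster 9. *Iigp1* varied more among libraries, with 43.4, 23.7 and 13.1 CPM in cluster 7, and a single UMI was counted in cluster 9, so that the ratio of 63.6 has a counting interval of 11.3 to 2525. The counts of *Tgtp1* and *Tgtp2*, which are near-identical, are uncertain.

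The genes that carry the interferon signal were divided. Of 24 listed IRF, STAT and receptor genes 22 passed the filter, of which 6 were higher in cluster 7, 6 higher in cluster 9 and 10 not past the threshold, and the count higher in cluster 9 was 3 with DESeq2, without the *sGSN-/-* library or without the *sGSN-/-Clec9a-/-* library. *Irf7* (ENSMUSG00000025498, chromosome 7, 141262706 to 141266481, minus strand), the factor that amplifies type I interferon production, was counted at 1064, 1289.6 and 1029.9 CPM in cluster 7 against 77.8, 193 and 132 CPM in cluster 9, a log2 fold change of 3.21 ± 0.19 (adjusted p = 4.7e-10, edgeR). *Stat2*, a part of the factor that binds the ISRE, stood at 199 ± 19.6 CPM in cluster 7 against 86.9 ± 21.5 CPM in cluster 9. *Socs1*, an inhibitor of JAK kinases, was higher in cluster 7 with 37.8 ± 7.49 against 13.1 ± 4.41 CPM, whereas the related *Socs3* was higher in cluster 9 with 104 ± 14.3 against 43.9 ± 10.6 CPM. *Irf1*, which answers to interferon gamma and to NF-kB, was also higher in cluster 9, at 142, 175 and 159.9 CPM against 85.5, 85.7 and 82.1 CPM. So was *Ifngr1*, the ligand-binding chain of the interferon gamma receptor, at 248 ± 43.8 against 143 ± 15.3 CPM. For *Irf9*, *Ifnar1* and *Irf8* no difference passed the threshold, with log2 fold changes of 0.31 ± 0.16, 0.38 ± 0.15 and -0.00 ± 0.09. *Ifnar1* passed it as higher in cluster 7 with the library as a block or without the filter on low counts (adjusted p from 0.044 to 0.73 over the alternatives).

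In cluster 9 all 5 subunits of NF-kB were higher than in cluster 7, with a median log2 fold change of -0.92. *Nfkb1*, which encodes p105 and its product p50, was counted at 247, 314 and 218 CPM in cluster 9 against 83.3, 68.7 and 83.8 CPM in cluster 7. *Relb* stood at 79.4 ± 16.3 CPM in cluster 9 against 28.1 ± 5.64 CPM in cluster 7, *Nfkb2* at 90.5 ± 11.3 and 45.6 ± 7.81 CPM, *Rel* at 725 ± 192 and 369.9 ± 44.9 CPM, and *Rela* at 65.9 ± 5.84 and 35.1 ± 3.38 CPM. *Rel* ranged from 528 to 912 CPM among the libraries of cluster 9 and overlapped with no sum of cluster 7.

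Most of the genes listed as feedback inhibitors of NF-kB were higher in cluster 9 too. The list also takes in *Nfkbiz*, whose product is not only an inhibitor. Of 14 listed genes, all of which passed the filter, 10 were higher in cluster 9, none higher in cluster 7, and *Nfkbie*, *Tnip2*, *Cyld* and *N4bp1* did not pass the threshold. The median log2 fold change was -1.30. *Nfkbie* passed as higher in cluster 9 with the library as a block or without TMM factors (adjusted p from 0.032 to 0.34 over the alternatives). *Nfkbiz* (ENSMUSG00000035356, chromosome 16, 55811375 to 55838899, minus strand), which encodes the nuclear protein IκBζ, had the largest difference of the genes called higher in cluster 9 at 50 CPM or more, with 376, 494 and 437 CPM in cluster 9 against 24.997, 17.5 and 28.5 CPM in cluster 7, 17.5-fold (log2 fold change -4.13 ± 0.16, adjusted p = 1.5e-12, edgeR). This rank turned with thinned cells, where *Sdc4* had a log2 fold change of -4.77, while *Nfkbiz* did not go beyond -4.30 in any alternative. *Nfkbia* (ENSMUSG00000021025, chromosome 12, 55489410 to 55492647, minus strand), which encodes the classical inhibitor IκBα, was counted at 2149, 1945 and 1662 CPM in cluster 9 against 235, 237 and 225 CPM in cluster 7. *Tnfaip3*, the gene of the ubiquitin-editing enzyme A20, reached 348, 420.0 and 443 CPM against 39.9, 35.04 and 35.3 CPM. *Zc3h12a*, which encodes the RNase regnase-1, stood at 75.4 ± 20.8 and 16.03 ± 3.35 CPM, and *Nfkbid* at 196 ± 21.3 and 64.02 ± 1.80 CPM. In these 5 genes of the list every library of cluster 9 lay above every library of cluster 7.

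Among 20 listed kinases and adaptors of the pathway 18 passed the filter, of which 7 were higher in cluster 9, 1 higher in cluster 7 and 10 not past the threshold, and the count for cluster 9 was 4 in 1 fit over all clusters, with DESeq2 or without the *sGSN-/-* library. *Birc3*, a ubiquitin ligase at TNF receptors, stood at 116 ± 6.24 CPM in cluster 9 against 25.8 ± 2.40 CPM in cluster 7, *Traf1* at 287 ± 43.99 and 167 ± 20.7 CPM, and *Bcl10*, an adaptor upstream of the IKK complex, at 172 ± 36.9 and 98.9 ± 24.99 CPM. The IKK subunit *Ikbkb* had a log2 fold change of -0.11 ± 0.14 and did not pass the threshold. The exception in the other direction was *Ripk2*, the kinase of NOD receptors, at 16.7 ± 3.79 CPM in cluster 7 against 8.42 ± 1.70 CPM in cluster 9, a call that was lost with DESeq2, without the WT library, without the *sGSN-/-* library or without the *sGSN-/-Clec9a-/-* library (adjusted p from 0.022 to 0.16 over the alternatives).

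Immediate early genes, which are transcribed within minutes of a signal, were mostly higher in cluster 9. Of 35 listed genes 34 passed the filter, 18 were higher in cluster 9 and 2 in cluster 7, the latter 0 with thinned cells (32 tested), without TMM factors, without the WT library or without the *sGSN-/-Clec9a-/-* library, 1 in 1 fit over all clusters or with DESeq2 and 4 without the filter on low counts (35 tested) or without the *sGSN-/-* library. *Dusp2*, a phosphatase that inactivates MAP kinases, stood at 878, 741 and 728 CPM in cluster 9 against 54.8, 80.03 and 62.1 CPM in cluster 7, a log2 fold change of -3.51 ± 0.14. *Egr1* stood at 2445 ± 515 and 649 ± 61.9 CPM, *Maff* at 191 ± 12.7 and 43.2 ± 9.96 CPM, and *Jun* at 1536 ± 341 and 729 ± 185 CPM. *Ppp1r15a*, which encodes GADD34 and restores translation after stress, stood at 1038 ± 35.03 and 231 ± 46.8 CPM. The other MAP kinase phosphatases of the list that were tested, *Dusp1*, *Dusp4*, *Dusp5*, *Dusp10* and *Dusp16*, did not pass the threshold, nor did *Fos* with a log2 fold change of -0.13 ± 0.10. *Dusp1* passed it as higher in cluster 9 with thinned cells, with the library as a block, without TMM factors or without the WT library (adjusted p from 0.025 to 0.38 over the alternatives), and *Dusp5* without TMM factors (adjusted p from 0.045 to 0.54 over the alternatives). *Atf3* and *Rgs2* were higher in cluster 7. The call for *Atf3* was lost with thinned cells, without TMM factors, without the WT library or without the *sGSN-/-Clec9a-/-* library (adjusted p from 2.6e-04 to 0.16 over the alternatives), and that for *Rgs2* in 1 fit over all clusters, with DESeq2, with thinned cells, without TMM factors, without the WT library or without the *sGSN-/-Clec9a-/-* library (adjusted p from 3.4e-04 to 0.31 over the alternatives). Such genes are also induced while tissue is digested and sorted, and the part of this in the difference was not tested.

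Some survival and stress genes were higher in cluster 9. The counts of *Bcl2a1a*, *Bcl2a1b* and *Bcl2a1d*, near-identical copies of an anti-apoptotic gene between which the counting is uncertain, were higher in cluster 9, with 681 ± 122 against 142 ± 11.1 CPM for *Bcl2a1b*. *Mcl1*, another BCL2 relative, stood at 1235 ± 105 and 756 ± 107 CPM and *Gadd45b* at 813 ± 37.6 and 246 ± 40.9 CPM. Of the 18 genes of the list, all tested, 6 were higher in cluster 9 and 3 in cluster 7, the latter 1 with DESeq2, with thinned cells (15 tested) or without the WT library. *Casp1*, which matures IL-1, and *Casp8*, which starts apoptosis at death receptors, were higher in cluster 7. The call for *Casp1* was lost with DESeq2, with thinned cells, without the WT library or without the *sGSN-/-Clec9a-/-* library (adjusted p from 0.0018 to 0.11 over the alternatives), and that for *Casp8* with DESeq2, with thinned cells, without the WT library or without the *sGSN-/-* library (adjusted p from 0.0033 to 0.32 over the alternatives). Of 16 tested genes of the unfolded protein response and of folding in the endoplasmic reticulum, 8 were higher in cluster 9 and none in cluster 7, and the count was 4 without the *sGSN-/-* library. The chaperone *Hspa5* (BiP) stood at 1552 ± 101 and 981 ± 58.02 CPM. Of 11 tested heat shock chaperones *Dnajb1* and *Bag3* were higher in cluster 9, a count of 1 without the *sGSN-/-* library and 4 with the library as a block or without the filter on low counts (12 tested). Over all genes tested 9.34% were higher in cluster 9, so the count of heat shock chaperones does not set that list apart. *Dnajb1* was highest in the WT library of cluster 9, with 811, 389 and 342 CPM, and the call for *Bag3* was lost without the *sGSN-/-* library (adjusted p from 2.8e-04 to 0.16 over the alternatives).

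The clusters expressed different signals to other cells. *Tnf* (ENSMUSG00000024401, chromosome 17, 35199381 to 35202007, minus strand) was counted at 145, 180.2 and 167 CPM in cluster 9 against 10.5, 12.8 and 8.55 CPM in cluster 7, 14.3-fold (log2 fold change -3.84 ± 0.17). *Il12b*, the p40 chain of IL-12, was also higher in cluster 9 in every library but varied strongly there, from 32.7 CPM in the WT library to 162 CPM in the *sGSN-/-* library, against 8.52 to 11.8 CPM in cluster 7. Its log2 fold change was -2.91, or -3.59 without the WT library and -2.06 without the *sGSN-/-* library. The partner chain *Il12a* gave 1 UMI in cluster 9 and none in cluster 7. *Il15*, which sustains NK cells and memory T cells, stood at 27.1 ± 7.18 CPM in cluster 7 against 12.98 ± 4.37 CPM in cluster 9, a call that was lost with thinned cells or without the WT library (adjusted p from 2.8e-04 to 0.13 over the alternatives). Of 17 listed cytokines and inhibitors 7 passed the filter, 3 were higher in cluster 9 and 1 in cluster 7. The count for cluster 9 was 5 without the filter on low counts (16 tested), and that for cluster 7 was 0 with thinned cells (7 tested) or without the WT library, 2 in 1 fit over all clusters, with the library as a block or without the *sGSN-/-Clec9a-/-* library and 3 without the filter on low counts (16 tested). *Ifnb1*, the interferon beta gene, gave no UMI in cluster 7 and 6 UMIs in cluster 9, all in the WT library, and was not tested.

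Of 16 chemokine genes in the matrices 12 passed the filter, 4 were higher in cluster 7 and 5 in cluster 9. The count for cluster 7 was 2 with DESeq2, and that for cluster 9 was 3 in 1 fit over all clusters or without the WT library. *Ccl4*, a chemokine that attracts T cells and monocytes, stood at 1607, 1359 and 1253 CPM in cluster 7 against 503, 634 and 339 CPM in cluster 9, and its relative *Ccl3* at 51.5 ± 18.2 and 13.8 ± 11.3 CPM. The log2 fold change of *Ccl3* was 1.73, or 2.96 without the WT library and 1.12 without the *sGSN-/-Clec9a-/-* library. In the other direction *Ccl6* stood at 112 ± 22.4 CPM in cluster 9 against 32.6 ± 4.08 CPM in cluster 7, and *Cxcl16*, the ligand of CXCR6 on T cells, at 157 ± 35.4 and 94.5 ± 17.9 CPM. The call for *Cxcl16* was lost without the WT library (adjusted p from 1.4e-04 to 0.098 over the alternatives). *Ccl22*, a ligand of CCR4, stood at 35.04 ± 11.6 and 10.7 ± 6.77 CPM, a call lost in 1 fit over all clusters (adjusted p from 4.7e-07 to 0.1 over the alternatives). *Cxcl9*, a ligand of CXCR3, was counted at 519, 517 and 588 CPM in cluster 7 against 227, 539 and 231 CPM in cluster 9, and its call as higher in cluster 7 was lost with DESeq2, without the WT library or without the *sGSN-/-Clec9a-/-* library (adjusted p from 3.2e-12 to 0.24 over the alternatives). *Cxcl10*, another CXCR3 ligand, stood at 132, 199 and 401 CPM and 191, 281 and 172 CPM, overlapped between the clusters and did not pass the threshold (log2 fold change 0.28 ± 0.29, or -0.41 without the *sGSN-/-Clec9a-/-* library). *Serpina3g*, a protease inhibitor, stood at 31.1, 50.7 and 48.4 CPM and 0.960, 37.9 and 0 CPM, and its call as higher in cluster 7 was lost with DESeq2 or without the *sGSN-/-Clec9a-/-* library (adjusted p from 1.8e-13 to 0.6 over the alternatives). Its log2 fold change was 2.19, or 1.59 without the WT library, 5.94 without the *sGSN-/-* library and 1.58 without the *sGSN-/-Clec9a-/-* library.

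Of the TNF superfamily, 6 of 19 listed genes passed the filter, 3 were higher in cluster 7 and 1 in cluster 9, and the count for cluster 7 was 1 with thinned cells (4 tested). *Tnfsf9*, which encodes 4-1BBL, a costimulator of CD8 T cells, stood at 136, 129.8 and 132 CPM in cluster 9 against 12.7, 9.95 and 29.1 CPM in cluster 7. *Tnfsf10*, which encodes TRAIL, a ligand that triggers apoptosis, gave 56 UMIs in cluster 7 and 2 in cluster 9, a ratio of 10.3 with a counting interval of 2.73 to 87.6. Among costimulatory and inhibitory molecules, of which 15 of 19 passed the filter, 5 were higher in cluster 9 and 3 in cluster 7. The count for cluster 9 was 2 without the *sGSN-/-* library, and that for cluster 7 was 5 in 1 fit over all clusters or with the library as a block and 6 without the filter on low counts (18 tested). *Icam1*, the adhesion ligand of LFA-1, stood at 589.7, 553 and 546 CPM in cluster 9 against 58.8, 74.4 and 73.5 CPM in cluster 7, a log2 fold change of -2.97 ± 0.12, and *Cd83*, which stabilises MHC class II at the surface, at 1207 ± 112 and 812 ± 45.6 CPM. *Lgals9*, the gene of galectin-9, was higher in cluster 7 with 207 ± 8.51 against 57.6 ± 3.06 CPM. *Cd86* stood at 244, 271 and 259.9 CPM in cluster 7 against 172, 247 and 152 CPM in cluster 9, so that the clusters overlapped, and its call as higher in cluster 7 was lost without the *sGSN-/-Clec9a-/-* library (adjusted p from 7.2e-05 to 0.13 over the alternatives). *Cd274*, which encodes PD-L1, stood at 27.9 ± 5.39 CPM in cluster 7 against 15.3 ± 7.23 CPM in cluster 9, and its call was lost with DESeq2, without the WT library or without the *sGSN-/-* library (adjusted p from 0.0031 to 0.28 over the alternatives). *Cd40* did not pass the threshold, with a log2 fold change of 0.62 ± 0.22 and an adjusted p of 0.051 (edgeR), but passed it as higher in cluster 7 in 1 fit over all clusters, with the library as a block, without the filter on low counts or without the *sGSN-/-* library (adjusted p from 0.0013 to 0.3 over the alternatives).

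Genes of antigen presentation were called in both directions. Of 21 genes of the MHC class I pathway, all tested, 10 were higher in cluster 7 and 4 in cluster 9, the latter count being 1 without the *sGSN-/-* library and 2 in 1 fit over all clusters, with DESeq2, with thinned cells (21 tested) or without the *sGSN-/-Clec9a-/-* library. The inducible proteasome subunits *Psmb8* and *Psmb9* and the proteasome activator *Psme1* stood at 1549.6 ± 90.7, 859.7 ± 12.5 and 1568 ± 45.5 CPM in cluster 7 and at 1094 ± 119, 573 ± 68.2 and 1105 ± 73.98 CPM in cluster 9. The class I heavy chain *H2-K1* had a log2 fold change of -0.17 ± 0.09 and *H2-D1* of -0.08 ± 0.09, neither past the threshold. The class Ib gene *H2-Q6* was higher in cluster 9, at 88.7 ± 13.04 against 34.5 ± 2.85 CPM, but shares sequence with other genes of its family, so its counts are uncertain. Of 13 class II genes 4 were higher in cluster 7, among them the protease gene *Ctss* at 665 ± 65.1 against 456 ± 33.996 CPM, and none in cluster 9. The class II chains *H2-Ab1* and *Cd74* had log2 fold changes of 0.08 ± 0.09 and 0.11 ± 0.09.

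Genes of cDC1 identity were called in both directions, near the shares over all genes tested. Those shares were 12.4% for cluster 7 and 9.34% for cluster 9, so the counts do not set this list apart. Of 20 genes, all tested, 4 were higher in cluster 7, 2 in cluster 9 and 14 not past the threshold, and the counts were 2 with DESeq2, with thinned cells (20 tested), without the WT library or without the *sGSN-/-* library for cluster 7 and 0 without the *sGSN-/-* library and 1 with DESeq2, with thinned cells (20 tested) or without the filter on low counts (20 tested) for cluster 9. *Batf3*, a factor needed for cDC1 development, stood at 299 ± 14.1 CPM in cluster 7 against 222 ± 8.91 CPM in cluster 9. The adhesion molecule *Cadm1* stood at 131 ± 32.7 CPM in cluster 9 against 68.01 ± 18.8 CPM in cluster 7, a call lost without the *sGSN-/-* library (adjusted p from 5.3e-07 to 0.085 over the alternatives). *Xcr1* had a log2 fold change of -0.18 ± 0.13, not past the threshold. Of 12 genes that are high in early cDC1s 8 were higher in cluster 7 and none in cluster 9 (1 with the library as a block). Among them were the calcium-binding proteins *S100a6* with 678 ± 51.4 against 271 ± 62.4 CPM and *S100a4* with 108 ± 7.45 against 43.3 ± 1.64 CPM, and also *Ifitm1*, *Ifitm2* and *Ifitm3*, which interferon can induce.

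Most genes of maturation and migration to lymph nodes had too few counts to be tested. Of 20 listed genes 11 did not pass the filter, among them *Ccr7*, the receptor that guides migration, with 40 UMIs in cluster 7 and 5 in cluster 9, and *Fscn1*, which bundles actin, with 3 UMIs and none. *Ccr7* stood at 2001 ± 723 CPM in cluster 8. Of the 9 tested, 4 were higher in cluster 9 and none in cluster 7. *Marcksl1* stood at 563, 436 and 409 CPM in cluster 9 against 78.9, 70.1 and 58.1 CPM in cluster 7, and its relative *Marcks* at 744 ± 32.2 and 363 ± 29.99 CPM; both encode substrates of protein kinase C that bind the membrane cytoskeleton. *Il15ra*, which presents IL-15 to other cells, gave 22 and 11 UMIs and was not tested.

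Of 13 tested pattern receptors and adaptors, *Tlr3* and *Cgas* were higher in cluster 7 and *Tlr2* and *Tlr11* in cluster 9, counts of 0 with thinned cells (8 tested) and 1 with DESeq2, without the WT library or without the *sGSN-/-* library for cluster 7 and of 0 with DESeq2, with thinned cells (8 tested) or without the *sGSN-/-* library and 1 without the WT library for cluster 9. *Cgas*, the sensor of cytosolic DNA, stood at 38.99 ± 6.63 CPM in cluster 7 against 18.5 ± 3.45 CPM in cluster 9, and its call was lost with thinned cells (adjusted p from 1.6e-05 to 0.17 over the alternatives). The call for *Tlr3* was lost with DESeq2, with thinned cells, without the WT library or without the *sGSN-/-* library (adjusted p from 0.0027 to 0.21 over the alternatives), that for *Tlr2* with DESeq2, without the WT library or without the *sGSN-/-* library (adjusted p from 0.018 to 0.24 over the alternatives) and that for *Tlr11* with DESeq2, without the WT library or without the *sGSN-/-* library (adjusted p from 0.019 to 0.4 over the alternatives). Over all genes tested the shares were 12.4% for cluster 7 and 9.34% for cluster 9, so the counts of pattern receptors do not set that list apart. Of 6 tested chemokine receptors *Ccr2* was higher in cluster 9, at 283 ± 28.7 against 173 ± 22.4 CPM, and without the WT library 2 of them were higher in cluster 9. Of 11 tested lysosomal genes the protease *Ctsc* and the membrane protein *Lamp2* were higher in cluster 7, with 318 ± 21.03 against 167 ± 35.04 CPM for *Ctsc*, and *Tfe3*, a transcription factor of lysosomal genes, was higher in cluster 9 with 52.6 ± 6.21 against 22.1 ± 1.39 CPM. The counts of chemokine receptors and of lysosomal genes likewise do not set those lists apart from all genes tested. 

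Of 14 tested glycolysis genes 5 were higher in cluster 7 and none in cluster 9, a count of 3 without the *sGSN-/-* library, and *Ldha*, lactate dehydrogenase A, stood at 737 ± 23.2 CPM in cluster 7 against 508 ± 18.4 CPM in cluster 9. Of 11 tested cell cycle genes *Mki67* was higher in cluster 9, at 49.9, 41.5 and 41.4 CPM against 7.02, 17.05 and 8.55 CPM, while *Top2a* and *Pcna* did not pass the threshold, with log2 fold changes of -0.11 ± 0.39 and -0.17 ± 0.13. *Mcm6* was higher in cluster 7, a call lost with DESeq2, without the WT library or without the *sGSN-/-Clec9a-/-* library (adjusted p from 0.0057 to 0.36 over the alternatives), and the count for cluster 7 was 0 with DESeq2, without the WT library or without the *sGSN-/-Clec9a-/-* library and 2 without the filter on low counts (17 tested). Over all genes tested the shares were 12.4% for cluster 7 and 9.34% for cluster 9. The counts of cell cycle genes do not set that list apart from these shares.

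**Figure D2:**
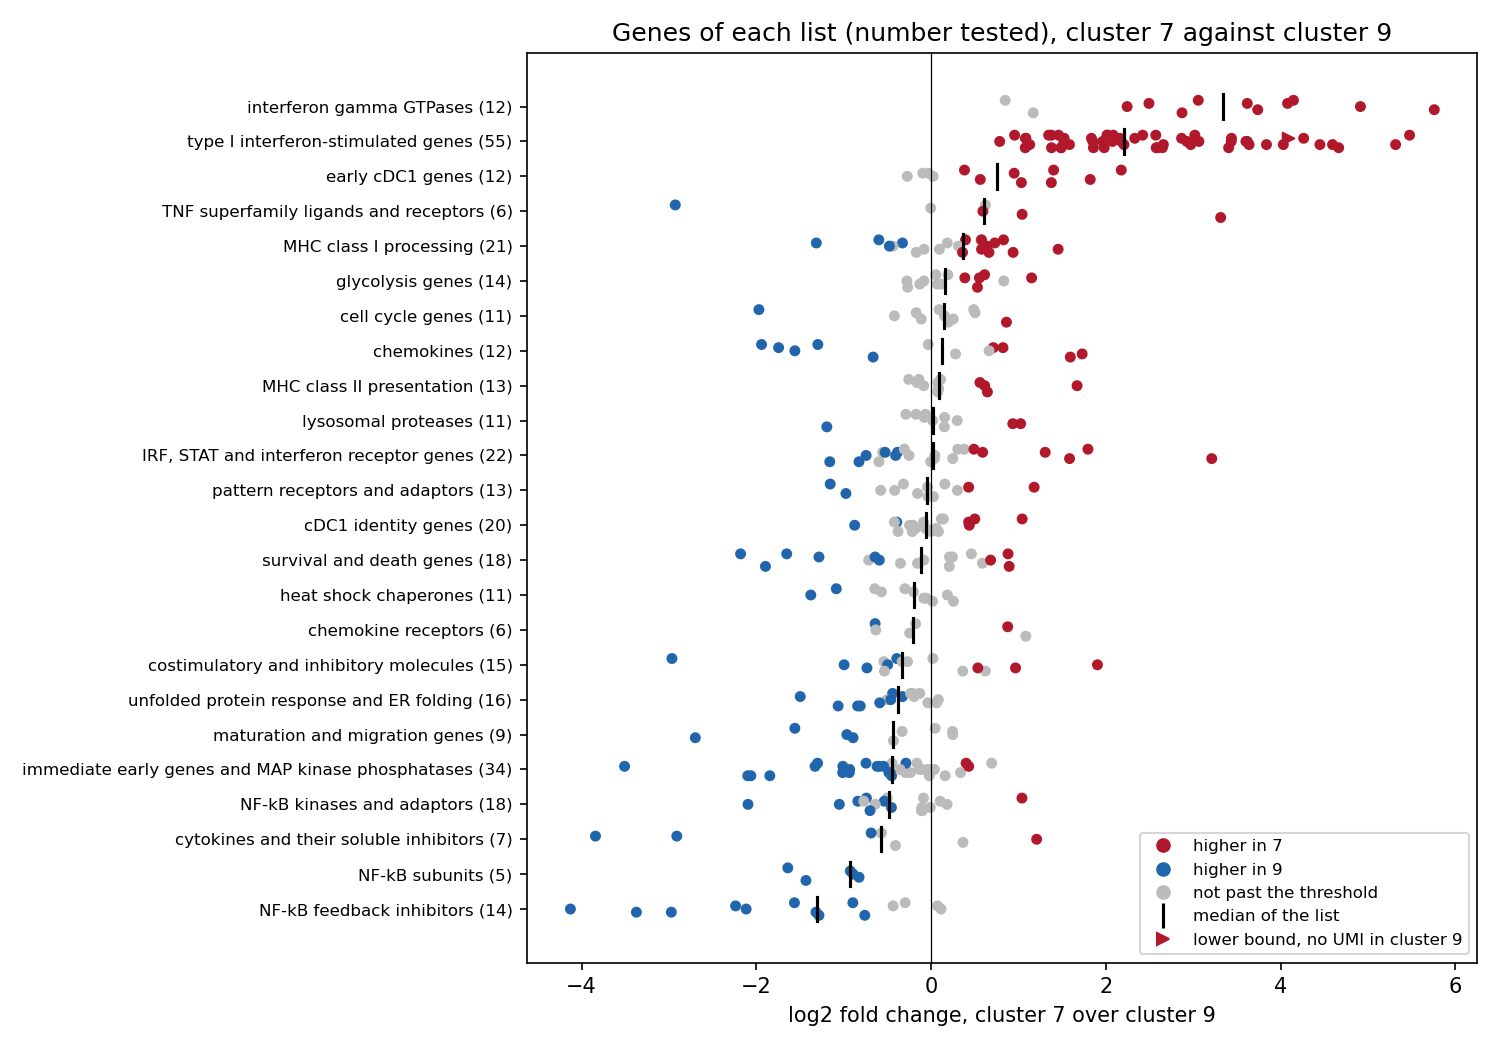
Log2 fold change of cluster 7 over cluster 9 (x axis) for each tested gene of each list (y axis, with the number of genes tested), 1 point per gene, red where higher in cluster 7, blue where higher in cluster 9 and grey where not past the threshold, with the median of each list as a black bar and a triangle at the lower bound of a gene without UMIs in cluster 9. The medians run from 3.34 for the interferon gamma GTPases to -1.30 for the NF-kB feedback inhibitors.

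The levels in the resting cDC1s, the 3499 cells of clusters 0, 2, 3, 5 and 6, give a level beside which both clusters can be placed. Of the 903 genes higher in cluster 7, 357 (39.5%) were at least 1.5-fold above the resting mean in cluster 7 without being 1.5-fold below it in cluster 9, 84 were at least 1.5-fold below it in cluster 9 alone, 42 did both and 420 neither. Of the 682 genes higher in cluster 9, 222 (32.6%) were above the resting mean in cluster 9 alone, 149 below it in cluster 7 alone, 45 did both and 266 neither. The interferon-stimulated genes were near their resting level in cluster 9, as *Isg15* with 84.7 ± 5.50 CPM in resting cells, *Irf7* with 113 ± 2.37 CPM and *Usp18* with 34.6 ± 3.47 CPM show beside the values of cluster 9 above. The NF-kB genes were in turn near their resting level in cluster 7, with 20.2 ± 1.18 CPM for *Nfkbiz*, 177 ± 14.2 CPM for *Nfkbia*, 41.4 ± 5.75 CPM for *Tnfaip3* and 12.3 ± 3.19 CPM for *Tnf* in resting cells. These levels are descriptions, with no test.

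Some genes were raised in both clusters over the resting cells. *Cxcl9* stood at 16.97 ± 4.73 CPM in resting cDC1s and *Cxcl10* at 5.999 ± 3.29 CPM, well below both clusters, and *Cd40* at 7.26 ± 1.12 CPM, below the 79.2 ± 12.4 CPM (7) and 58.1 ± 27.2 CPM (9) of the clusters. For *Irf1* the mean was 37.1 ± 1.89 CPM in resting cells and 667 ± 75.6 CPM in cluster 10, on either side of both clusters, which had 84.4 ± 2.05 CPM (7) and 159 ± 16.4 CPM (9). Clusters 8 and 10 are the other activated cDC1s, with 255 and 76 cells. *Cxcl9* reached 4832 ± 130.1 CPM in cluster 10 and *Il12b* 1856 ± 721 CPM in cluster 8, above both clusters compared here, whereas *Isg15* (606 ± 196 and 329 ± 22.9 CPM) and *Ifit2* (42.4 ± 29.7 and 36.6 ± 23.7 CPM) were lower in clusters 8 and 10 than in cluster 7. *Nfkbiz* (68.1 ± 27.6 and 60.4 ± 7.26 CPM) and *Tnf* (45.5 ± 21.1 and 20.9 ± 12.8 CPM) were lower in clusters 8 and 10 than in cluster 9, while *Relb* was higher in cluster 8 (469 ± 121 CPM) than in cluster 9.

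Single cells were then described by the share of their UMIs that came from the list of 58 interferon-stimulated genes and from the 19 genes of NF-kB subunits and feedback inhibitors. The median cell of cluster 7 held 1.80%, 1.78% and 1.74% of its UMIs in the interferon list in the 3 libraries, and the median cell of cluster 9 0.399%, 0.459% and 0.391%. For the NF-kB genes the medians were 0.110%, 0.104% and 0.0982% in cluster 7 and 0.477%, 0.553% and 0.412% in cluster 9. In resting cDC1s they were 0.429%, 0.438% and 0.437% for the interferon list and 0.109%, 0.103% and 0.0999% for the NF-kB genes, so that each cluster lay close to the resting cells in the list of the other. Cluster 8 stood above cluster 9 for the NF-kB genes in each library, with 0.585%, 0.612% and 0.536%, and cluster 10 below it, with 0.289%, 0.295% and 0.193%. For the interferon list the mean of the medians was 0.411% in cluster 8 and 0.999% in cluster 10. Within cluster 7 the interferon share was broad, with a 10th percentile of 1.11% and a 90th percentile of 2.83% in the WT library. Over all cells of a cluster the median was 1.75% for the interferon list in cluster 7 and 0.458% for the NF-kB genes in cluster 9. Of the 162 cells of cluster 9, 4 (2.47%) exceeded this interferon median, and 5 of the 422 cells of cluster 7 (1.18%) exceeded this NF-kB median. Together 3 cells of cluster 7 and 2 of cluster 9 exceeded both of these medians. As the clusters were called on these cells, the separation is only a description.

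**Figure D3:**
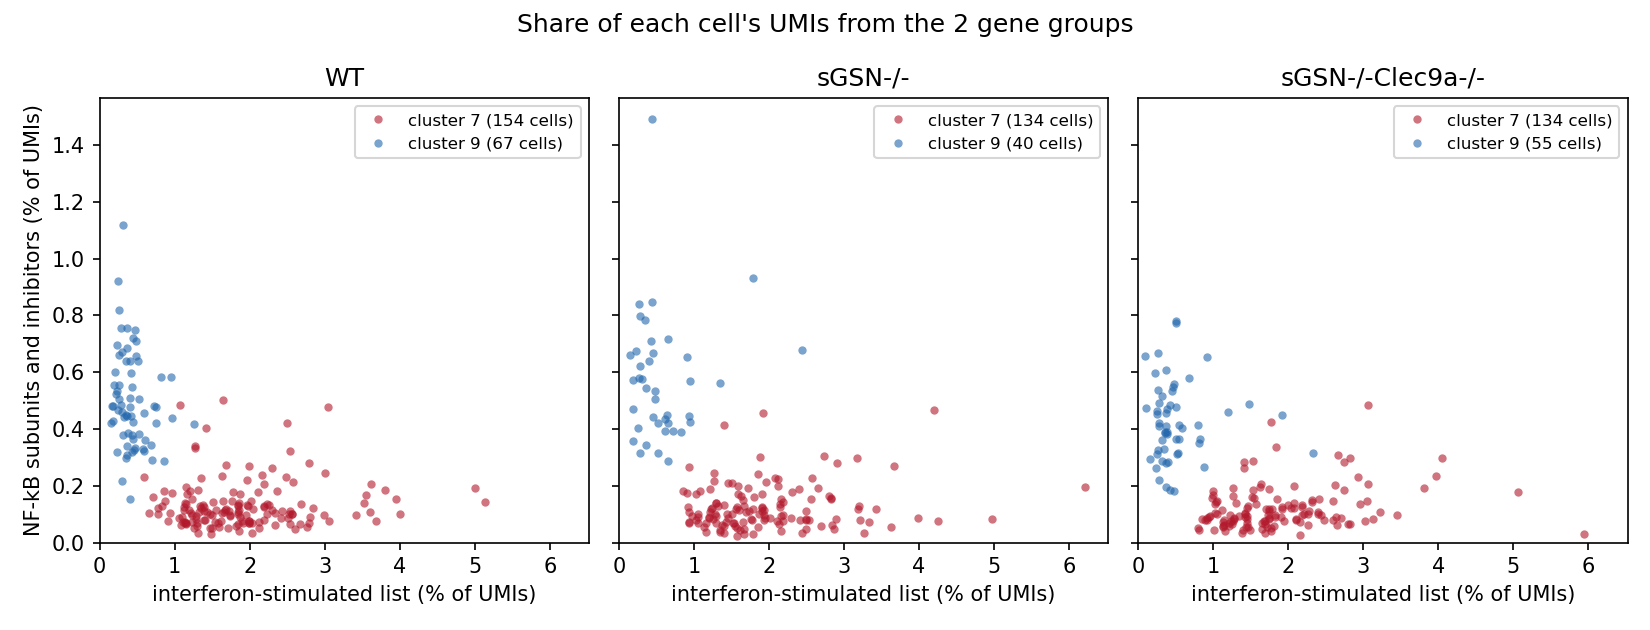
Share of each cell's UMIs from the interferon-stimulated list (x axis, percent) and from the NF-kB subunits and feedback inhibitors (y axis, percent), 1 panel per library and 1 point per cell, red for cluster 7 and blue for cluster 9. Cells of cluster 7 spread along the x axis and cells of cluster 9 along the y axis, and 3 and 2 cells lie above the medians over all libraries of cluster 7 in x and cluster 9 in y.

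Both clusters occurred in all 3 genotypes. Of the cDC1s of the 3 libraries, cluster 7 made up 6.65% (5.67 to 7.74), 7.83% (6.60 to 9.20) and 7.54% (6.35 to 8.86), with exact Clopper-Pearson 95% intervals. Cluster 9 made up 2.89% (2.25 to 3.66), 2.34% (1.67 to 3.17) and 3.09% (2.34 to 4.01). There were 2.30, 3.35 and 2.44 cells of cluster 7 for each cell of cluster 9. The intervals overlapped among genotypes, they cover counting error only, and with 1 library for each genotype there is no test between genotypes.

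Markers of other cells summed to less than the cDC1 markers in both clusters. The 10 macrophage or monocyte markers summed to 145, 125 and 192 CPM in cluster 7 against 66.3, 43.3 and 50.3 CPM in cluster 9, with *Fcgr1* the most abundant in cluster 7. *Fcgr1* and the monocyte gene *Ly6c2* (43.3 ± 15.3 against 2.34 ± 1.12 CPM; log2 fold change 4.29, or 5.28 with thinned cells) were higher in cluster 7, while the macrophage genes *C1qb* and *Apoe* had log2 fold changes of -0.02 ± 0.50 and -0.03 ± 0.30, not past the threshold. The 7 markers of plasmacytoid cells summed to 878, 916 and 907 CPM and 226, 288 and 239.8 CPM, most of it *Bst2*, which stands in the interferon list too, and the transcription factor *Tcf4* was also higher in cluster 7 (73.9 ± 9.39 against 28.9 ± 6.81 CPM). Of the defining plasmacytoid markers *Ly6d* and *Klk1* were at 0 in all 6 sums, and *Siglech* gave 23 UMIs in cluster 7 and 1 in cluster 9. The 8 cDC2 markers summed to 45.6, 37.9 and 38.2 CPM and 49.9, 43.3 and 50.3 CPM, led by *Cd209a* in cluster 7, with *Clec4a4* at 0. The call of *Cd209a* as higher in cluster 7 was lost in 1 fit over all clusters, with DESeq2, without the WT library, without the *sGSN-/-* library or without the *sGSN-/-Clec9a-/-* library (adjusted p from 0.023 to 0.32 over the alternatives). *Mgl2*, another lectin of cDC2s, was higher in cluster 9 (12.01 ± 3.86 against 3.74 ± 1.83 CPM), a call lost in 1 fit over all clusters or without the WT library (adjusted p from 0.0041 to 0.12 over the alternatives). The 6 pre-cDC markers summed to 207, 196 and 219 CPM and 158, 168 and 170.2 CPM, most of it *Flt3*, and *Spn*, which encodes CD43, was higher in cluster 9 with 11.3 ± 4.63 against 2.26 ± 2.04 CPM.

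The 9 NK cell markers summed to 27.6, 63.5 and 41.04 CPM in cluster 7 against 29.8, 72.1 and 31.1 CPM in cluster 9, highest in the *sGSN-/-* library in both, with *Ccl5* or *Gzma* the most abundant in all sums but the WT sum of cluster 7, and *Prf1* and *Eomes* at 0 in cluster 9. The 9 T cell markers summed to 8.30 ± 2.73 CPM in cluster 7 against 6.26 ± 2.60 CPM in cluster 9, the 6 markers of tumour cells or fibroblasts to 3.93 ± 2.48 CPM in cluster 7 against 6.42 ± 4.59 CPM in cluster 9, the 5 B cell markers to 0.462 ± 0.474 CPM in cluster 7 against 0.813 ± 0.751 CPM in cluster 9 and the 4 neutrophil markers to 0.336 ± 0.298 CPM in cluster 7 against 1.20 ± 2.08 CPM in cluster 9. *Dcn*, *Cd79a*, *Ms4a1*, *Ebf1*, *S100a8*, *S100a9* and *Retnlg* were at 0 in all 6 sums. Of these lists 3 NK cell markers had enough counts to be tested, and no gene of the other lists had. None of the 584 cells was among the 6% of barcodes with the highest doublet scores.

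Promoters of the called genes were searched for the motifs of these factors, in windows of 300 bases from RefSeq (GRCm38.p6) that reach from 250 bases before to 50 bases after the start of the gene. The ISRE, the gamma-activated site (GAS) and the kB site of NF-kB were each searched by consensus on both strands. The ISRE was in 84 of 726 (11.6%) promoters found for genes higher in cluster 7, in 17 of 536 (3.17%) for genes higher in cluster 9, in 260 of 5869 (4.43%) for all genes tested and in 1131 of 32851 (3.44%) promoters of the whole table. The kB site was in 44 of 726 (6.06%), 60 of 536 (11.2%), 381 of 5869 (6.49%) and 1480 of 32851 (4.51%), in the same order. The GAS motif was in 66 of 726 (9.09%), 47 of 536 (8.77%), 467 of 5869 (7.96%) and 2726 of 32851 (8.30%). In the list of interferon-stimulated genes 21 of 45 (46.7%) promoters held the ISRE, and of the NF-kB subunits and inhibitors 10 of 16 (62.5%) held the kB site. Matches of the ISRE and GAS overlapped each other in 24 promoters of the table, those of the ISRE and kB in 2 and those of GAS and kB in 17. These shares are descriptions without a test, and a match is not a bound site.

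The promoters of the 3 genes with the largest difference that held the ISRE are shown for cluster 7, with each match in capitals. They are those of *Ifit3* (chr19:34583279-34583578, plus strand), *Ifit1* (chr19:34640639-34640938, plus strand) and *Isg15* (chr4:156200769-156201068, minus strand), with 2, 2 and 3 matches, those of *Isg15* overlapping each other.
Ifit3: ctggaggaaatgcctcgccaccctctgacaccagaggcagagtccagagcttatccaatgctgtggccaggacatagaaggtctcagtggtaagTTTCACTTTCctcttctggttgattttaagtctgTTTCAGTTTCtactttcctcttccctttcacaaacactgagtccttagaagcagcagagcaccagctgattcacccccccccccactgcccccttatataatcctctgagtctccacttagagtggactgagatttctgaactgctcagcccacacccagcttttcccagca
Ifit1: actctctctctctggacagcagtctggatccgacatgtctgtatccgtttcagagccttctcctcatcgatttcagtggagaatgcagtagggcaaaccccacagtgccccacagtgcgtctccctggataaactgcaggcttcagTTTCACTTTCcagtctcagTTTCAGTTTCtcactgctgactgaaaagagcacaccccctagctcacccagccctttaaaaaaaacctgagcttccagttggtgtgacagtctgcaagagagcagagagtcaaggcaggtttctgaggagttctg
Isg15: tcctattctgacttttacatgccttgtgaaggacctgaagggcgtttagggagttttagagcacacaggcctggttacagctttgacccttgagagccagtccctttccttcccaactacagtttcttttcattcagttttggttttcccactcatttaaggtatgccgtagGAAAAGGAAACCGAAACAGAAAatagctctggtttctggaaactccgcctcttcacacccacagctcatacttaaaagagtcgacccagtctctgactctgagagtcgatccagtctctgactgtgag

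For cluster 9 the same choice with the kB site gave the promoters of *Sdc4* (chr2:164443139-164443438, minus strand), a heparan sulfate proteoglycan, *Tnfaip3* (chr10:19015361-19015660, minus strand) and *Nfkbia* (chr12:55492598-55492897, minus strand), with 1, 2 and 1 matches in capitals. *Sdc4* itself stood at 91.2, 153 and 38.5 CPM in cluster 9 against 2.63, 9.47 and 3.42 CPM in cluster 7, with a log2 fold change of -4.05, or -4.77 with thinned cells.
Sdc4: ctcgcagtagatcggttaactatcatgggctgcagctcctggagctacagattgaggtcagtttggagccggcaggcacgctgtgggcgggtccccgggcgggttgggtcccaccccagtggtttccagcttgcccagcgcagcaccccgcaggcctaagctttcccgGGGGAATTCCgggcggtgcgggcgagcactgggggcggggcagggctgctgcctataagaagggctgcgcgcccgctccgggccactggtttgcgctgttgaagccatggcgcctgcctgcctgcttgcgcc
Tnfaip3: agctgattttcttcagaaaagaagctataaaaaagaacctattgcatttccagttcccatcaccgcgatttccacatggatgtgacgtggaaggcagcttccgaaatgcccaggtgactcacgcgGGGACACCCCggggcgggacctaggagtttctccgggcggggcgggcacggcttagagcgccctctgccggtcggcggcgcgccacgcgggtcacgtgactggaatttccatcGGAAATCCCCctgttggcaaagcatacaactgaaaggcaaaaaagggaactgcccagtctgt
Nfkbia: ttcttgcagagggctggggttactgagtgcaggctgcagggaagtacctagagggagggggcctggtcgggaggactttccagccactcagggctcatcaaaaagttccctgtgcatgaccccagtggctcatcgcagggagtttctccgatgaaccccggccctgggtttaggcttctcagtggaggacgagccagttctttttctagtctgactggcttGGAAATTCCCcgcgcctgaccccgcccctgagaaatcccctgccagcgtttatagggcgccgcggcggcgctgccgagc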

How the data were processed

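The authors deposited raw counts of UMIs per gene and barcode for each of the 3 libraries, made with Cell Ranger 6.0.1 on mm10 per the file headers and without normalisation, and a table with the cluster of each cDC1, called after integration with Seurat 4.0.0 per the submitters' notes. According to the methods, cells had at least 200 genes, and cells with a high mitochondrial share were removed. The counts used here are those before integration. The members and gene lists were chosen with earlier results of these data known.

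Counts were summed per library and cluster and compared with edgeR 4.0.16 in R 4.3.3 (TMM factors, filterByExpr, quasi-likelihood F-test, Benjamini-Hochberg adjustment at 0.05, SE from the log2 fold change and the F statistic). An exact permutation test of 3 sums against 3 cannot go below p = 0.1 and was not used. Both sums of a library share a pool of mice and are thus paired. After the cluster means were taken out, they correlated with 0.0625, 0.0397 and 0.126. Alternatives were DESeq2 1.42.0, totals without TMM factors, no filter, the library as a block, each library left out, 1 fit over all 12 clusters, cells thinned to 6700 UMIs (29 shallower cells left out, 19 of cluster 7 and 10 of cluster 9), and doublets left out (the 6% of barcodes with the highest Scrublet scores). The test was first run on simulated data. Some genes of the lists are not reported here by name.

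Named genes were those the study names for these states, the 12 largest and 12 smallest log2 fold changes past the threshold at 50 CPM or more in the higher cluster, the 3 most abundant called in each direction and 2 not called of each list, *Clec9a*, *Gsn* and the most abundant marker of each other cell type. Other genes named were chosen after their values were seen. Positions are those of GENCODE M21 (GRCm38). No source at hand states how near-identical or overlapping genes were counted. The UMI count in the deposited table equalled the matrix for 444 of the 584 cells and differed by at most 5 UMIs in the others.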

Additional observations from a re-analysis of the deposited data

Results flagged for a closer look

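For *Cxcl10* and *H2-Ab1* the difference between the clusters, scaled by totals, went in opposite directions in the libraries, with an exact counting interval that excluded equal levels in at least 1 library on each side. The log2 ratio of cluster 7 to cluster 9 for *Cxcl10*, a chemokine that interferon and NF-kB both induce, was -0.534 (WT), -0.499 (*sGSN-/-*) and 1.22 (*sGSN-/-Clec9a-/-*). The level in cluster 7 of the last library was 401 CPM, against 132 and 199 CPM in the WT and *sGSN-/-* libraries. For *H2-Ab1*, an MHC class II chain, the log2 ratios were close to 0, at 0.012, -0.0729 and 0.0705. With TMM factors they were 0.0402, 0.0344 and 0.155, all in 1 direction, so that the split of *H2-Ab1* depends on the scaling. Those of *Cxcl10* were -0.506, -0.392 and 1.31 with TMM factors and remained split. The difference between genotypes was not tested, since each genotype has 1 library, and the intervals cover counting error only.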

How the results depend on the processing

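Of the 155 named genes that were tested, 107 passed the threshold, of which 102 had enough counts to be tested in all alternatives and 72 of the latter kept their call in all of them. None reversed past the threshold where tested, with 145 genes tested with thinned cells and 154 without the WT or without the *sGSN-/-* library. The count of genes higher in cluster 7 was 538 with thinned cells, where 5335 genes were tested, and that of genes higher in cluster 9 was 446 with thinned cells and 430 with DESeq2, where the cause was not tested. With 1 library left out, which leaves 2 sums against 2, the counts ran from 592 to 658 for cluster 7 and from 412 to 482 for cluster 9. With the library as a replicate block they were 941 and 713, within 1.5 times those without the block, and 7 named genes came to pass the threshold while none was lost. Leaving out doublets changed no sum, as no cell of either cluster was marked. With clusters 7 to 10 as the denominator, cluster 7 made up 47.2%, 42.5% and 48.9% of the cells in the WT, *sGSN-/-* and *sGSN-/-Clec9a-/-* libraries and cluster 9 20.6%, 12.7% and 20.1%. After thinning, the mean over libraries of the median share in clusters 7 and 9 moved by less than its SD for both lists, but single medians moved by more, as that of the interferon list in cluster 7 of the WT library from 1.80% to 1.73% and that of the NF-kB genes in cluster 9 of the *sGSN-/-* library from 0.553% to 0.463%.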

Other observations

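Several genes of sterol synthesis and uptake had higher levels in cluster 7. This list was chosen after its values were seen, so its counts only describe. Of 24 genes 18 passed the filter on low counts, 10 were called higher in cluster 7 and 8 did not pass the threshold. The count was 6 of 17 without the WT library, 7 with DESeq2 or without the *sGSN-/-* library, and 13 of 23 in 1 fit over all clusters. The median log2 fold change of the 18 genes was 1.09, within a range from -0.12 to 2.88. *Fdps*, which makes farnesyl diphosphate, stood at 146, 198 and 152 CPM in cluster 7 against 31.7, 32.4 and 14.8 CPM in cluster 9, with 55.97 ± 19.3 CPM in resting cDC1s. *Idi1*, an isomerase of the same pathway, stood at 52.2, 53.5 and 42.7 CPM and 11.5, 5.41 and 1.48 CPM, with a log2 fold change of 2.88, or 3.92 without the WT library, and *Cyp51*, a demethylase of lanosterol, at 71.9 ± 14.03 and 15.9 ± 9.28 CPM. The regulators *Srebf2* and *Insig1* had log2 fold changes of -0.12 ± 0.14 and 0.20 ± 0.23.

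The Ifi200 family holds sensors and regulators encoded by neighbouring genes, and was also listed after its values were seen. Of the 12 members that passed the filter 11 were called higher in cluster 7, and the median log2 fold change was 1.60. *Ifi204* stood at 335 ± 31.7 CPM in cluster 7 against 47.01 ± 21.5 CPM in cluster 9 and *Mndal* at 729 ± 40.8 CPM in cluster 7 against 316 ± 29.8 CPM in cluster 9. *Ifi208* gave 55 UMIs in cluster 7 and none in cluster 9, at least 6.78-fold higher with 3 UMIs over the cluster as the floor. *Aim2*, the inflammasome sensor of DNA, had 63.4 ± 6.53 and 84.2 ± 15.3 CPM and a log2 fold change of -0.32 ± 0.15. The members are alike in sequence, so counts of single members are uncertain.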
